A study of Sus scrofa with 7 samples.

Results

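Collagens, laminins, integrins, matrix proteoglycans and the proteases that cut them were examined in the hypothalamus of piglets that received antibiotics into the distal ileum and of piglets that received saline. The genes were taken by name from the authors' deposited table, as rows named for a collagen chain, a laminin chain, an integrin alpha or beta subunit, fibronectin, a fibrillin, a fibulin, SPARC or SPARCL1, decorin, lumican, biglycan, a matrix metalloproteinase (MMP), a tissue inhibitor of metalloproteinases (TIMP), a nidogen or perlecan. Such a name was carried by 90 of the 16991 deposited features, and the 62 that the authors had tested are described, out of 13352 tested features in all. They hold 61 gene symbols, because ITGAE has 2 rows. The names COL4A3BP, a ceramide transfer protein, and ITGB1BP1, a cytoplasmic binding partner of integrins, fit the naming pattern but encode neither a collagen nor an integrin, and they are given apart.

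In both groups the animals, of the cross Duroc x Landrace x Large White, were at postnatal day 45, lived singly in metabolic cages and carried a T-cannula in the distal ileum. The antibiotic group was given 10 mL of saline with 3 drugs, at daily doses per kg of 30 mg metronidazole, 150 mg ampicillin and 4 mg gentamicin, and the control group was given 10 mL of saline alone. RNA-seq libraries came from 3 antibiotic and 4 control hypothalami, out of 12 piglets that had been randomised. For each gene the authors deposited a single FPKM per group, that is, fragments scaled by transcript length and by the number of mapped fragments, so there is no value per animal, no spread between animals and no known depth. Every FPKM, p and q of a gene in the text is the authors' deposited value. So is its log2, except where a scaling or an added FPKM is named. Fold sizes, counts, medians, sums and ratios were computed from the deposited values. Replicate error enters only through the authors' q, whose test is not described in the sources used here, and the labels do not say which animal or block a library came from. A gene rose or fell where that q was under 0.05, and a log2 value is the log2 of antibiotic over control FPKM.

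The extracellular matrix is the protein and sugar mesh between cells. In the brain, fibrillar collagens lie mostly in the meninges and around large vessels, while a sheet called the basement membrane, built of type IV collagen, laminins, nidogens and perlecan, wraps every blood vessel and underlies the meninges. Integrins are receptors with an alpha and a beta subunit that tie cells to this mesh, MMPs cut it, and TIMPs block the MMPs. The libraries were made from whole hypothalamus, so fewer cells of a type and less RNA per cell cannot be told apart.

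Of 9 fibrillar collagen genes 5 fell in the antibiotic group, led by COL1A1, and 2 rose (77.8% called). Of 10 basement membrane genes 4 rose and none fell (40% called). ITGAV, the integrin alpha V subunit, rose 4.17-fold and was the most abundant integrin of the antibiotic group. Over all 62 genes the picture was balanced, since 14 rose, 11 fell and 37 did not pass. Of all tested features 41.1% changed, 19.0% upwards and 22.2% downwards, and among the 62 genes 40.3% changed, 22.6% upwards and 17.7% downwards, a share near that of the table as a whole. Their median log2 was 0.09, against -0.03 for all tested features, and their middle range, between the 25th and 75th percentiles, was -0.45 to 0.54, against -0.57 to 0.54. At least a 2-fold difference was seen upwards in 10 genes and downwards in 8, where 9.49% and 10.6% of all tested features had one. By the authors' own significant call, which asks for a q under 0.05 and a 2-fold change, 9 rose and 7 fell, against 7.37% and 8.44% of all tested features. In either direction that call took in 16 of the 62 genes (25.8%), against 15.8% of all tested features, and 18 genes (29.0%) differed 2-fold, against 20.0%. The call that also asks for size and the 2-fold count were thus above the share of all features, while the q of 0.05 was not, and none of these differences was tested. At a q under 0.01 there were 7 rises and 8 falls among the 62 genes, shares below the 12.8% and 15.5% of all tested features. Among features with 5 FPKM in a group 8.59% were 2-fold higher, as were 6 of the 37 genes, and with 1 FPKM added to both groups 5.26% were, as were 6 of the 62. Levels ran from 0.239 FPKM for COL9A1 in control to 1426 FPKM for SPARCL1 in control.

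**Figure D1:**
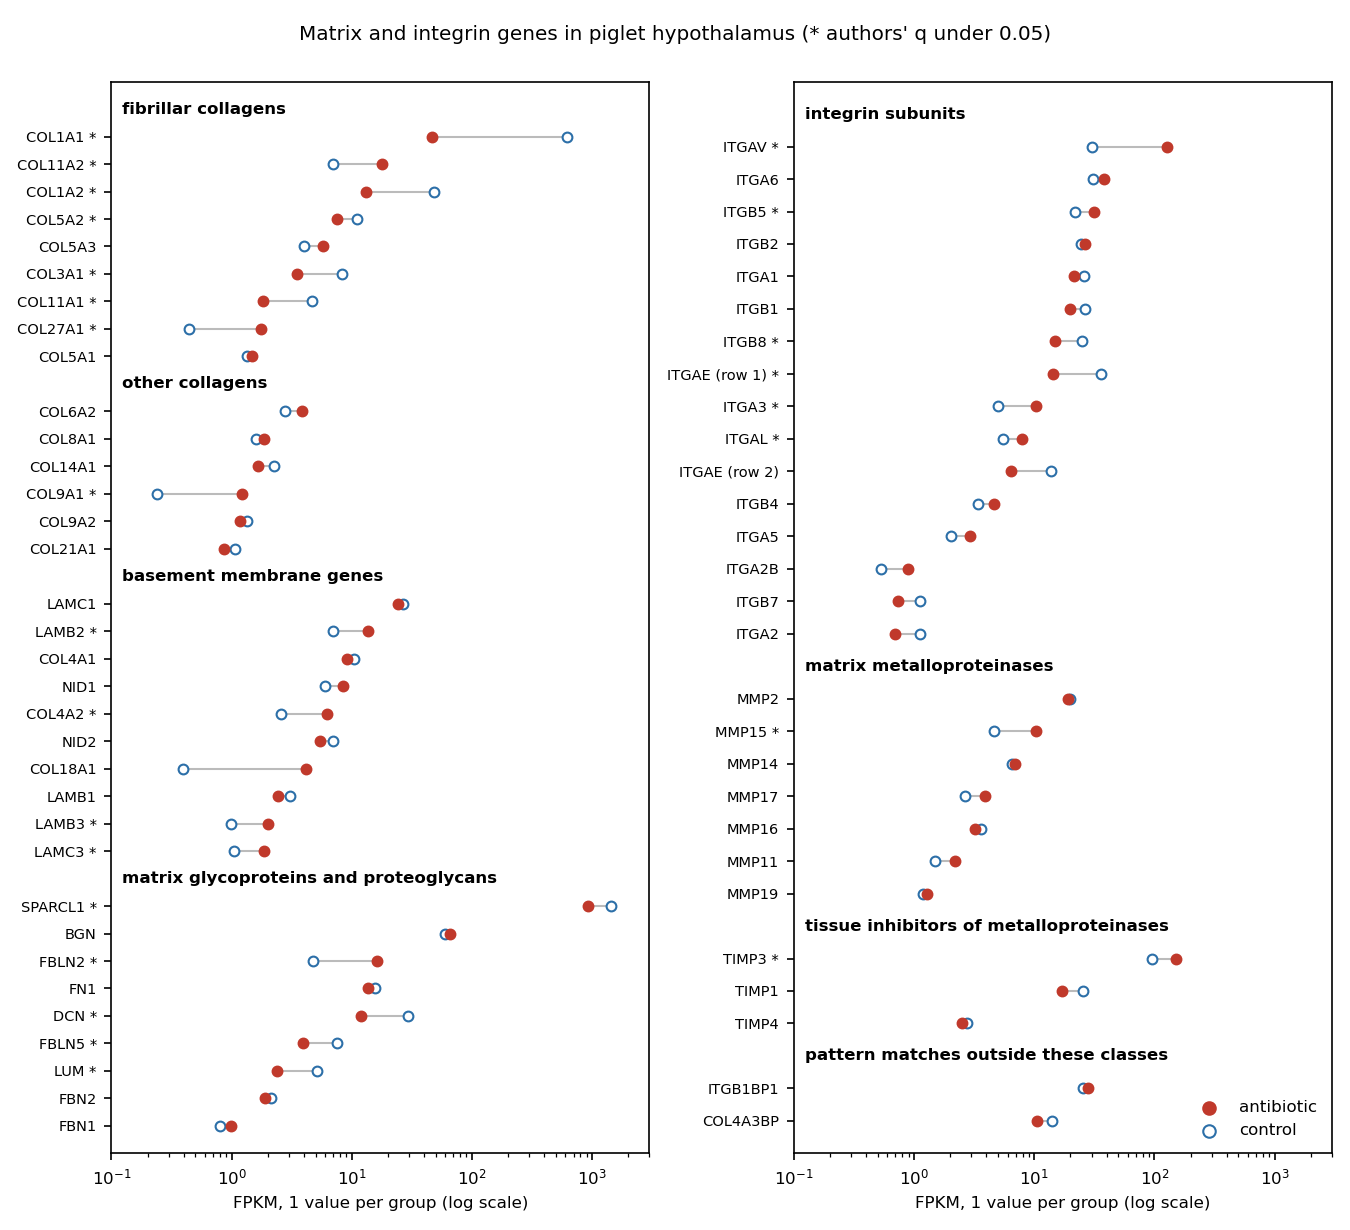
FPKM of the 62 genes, grouped by role, on a log axis. Each line joins the authors' antibiotic value (filled red) to their control value (open blue), with no error bar because there is 1 value per group, and an asterisk marks an authors' q under 0.05. COL1A1 lies far to the left in the antibiotic group (46.1 against 619 FPKM) and ITGAV far to the right (126 against 30.3 FPKM).

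The fibrillar collagens form the rope-like fibrils of connective tissue, and the type I chains COL1A1 and COL1A2 are their most abundant pair. COL1A1 stood at 46.1 FPKM in the antibiotic group, against 619 FPKM in control, a 13.4-fold lower value (log2 of -3.75, authors' q = 0.000336). Its fall ranked 47th among the 13352 tested features. The deposited row, named COL1A1 with a second identifier that has no symbol (ENSSSCG00000029074), spans chromosome 12, 26469524 to 26477871, so reads of both entries are in this value. COL1A2, the second chain of type I collagen, stood at 13.2 FPKM in the antibiotic group and 48.2 FPKM in control, 3.64-fold lower (q = 0.000336). The type I chains therefore had unequal falls, and COL1A1 had 3.48 times the FPKM of COL1A2 in the antibiotic group and 12.8 times in control, on a scale that is per length.

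COL3A1, the type III chain that is laid down beside type I in vessel walls, was at 3.51 FPKM in the antibiotic group and 8.34 FPKM in control (2.38-fold lower, q = 0.000336). COL5A2, a type V chain that helps start fibrils, was at 7.60 and 11.0 FPKM in antibiotic and control (1.45-fold lower, q = 0.0192). COL11A1, a type XI chain, was at 1.84 FPKM in the antibiotic group and 4.71 FPKM in control (2.56-fold lower, q = 0.000336). Its partner chain did the opposite: COL11A2 was at 17.9 FPKM in the antibiotic group and 7.02 FPKM in control (2.55-fold higher, q = 0.000336). COL11A1 thus had 0.103 times the FPKM of COL11A2 in antibiotic and 0.670 times in control. COL27A1, a fibrillar chain of cartilage, also rose, with 1.77 FPKM in the antibiotic group and 0.440 FPKM in control (4.03-fold, q = 0.0104), and its log2 of 2.01 became 0.95 with 1 FPKM added to both groups. The COL27A1 row spans 378854 bases and overlaps 4 other rows, so shared reads cannot be assigned from the deposited values.

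The remaining type V chains did not pass. COL5A1 was at 1.48 FPKM in the antibiotic group and 1.36 FPKM in control (q = 0.678), and COL5A3 at 5.73 and 3.98 FPKM in antibiotic and control (q = 0.148). Over the 9 fibrillar genes 5 fell and 2 rose, with a median log2 of -0.54. Their summed FPKM was 99.2 in the antibiotic group and 704 in control, and COL1A1 alone held 46.5% of it in antibiotic and 87.9% in control. Without COL1A1 the sum was 53.1 FPKM in antibiotic and 85.0 FPKM in control, and the median log2 was -0.21, with 4 of 8 genes above 0.

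Some markers of other cells and tissues fell beside the fibrillar collagens, and those of fibroblasts were mixed. In the list for leptomeningeal and perivascular fibroblasts, the cells that make most fibrillar collagen in the brain, 6 of 11 symbols were matched. Of 5 tested members 1 fell and none rose (20% called, against 41.1% of all tested features). The summed FPKM of the matched members was 45.5 in antibiotic and 60.2 in control. The member that fell was OGN, which encodes the small proteoglycan osteoglycin, at 6.93 FPKM in antibiotic and 27.9 FPKM in control (q = 0.000336). Without OGN the matched sum was higher in antibiotic, at 38.5 FPKM against 32.3 FPKM in control, and the median log2 of the 5 tested members was 0.31. Most of that sum was 1 gene in both groups, the growth factor receptor PDGFRA, at 29.9 FPKM in antibiotic and 24.2 FPKM in control (q = 0.136). The sum without OGN therefore says little about the other markers. The transporter SLC22A6 was at 6.21 and 4.10 FPKM in antibiotic and control (q = 0.0628). SLC6A13, a further transporter, was at 1.69 FPKM in antibiotic and 1.29 FPKM in control (q = 0.333), and CRABP2, which binds retinoic acid, at 0.386 and 2.15 FPKM (q = 0.0656). The matched marker that the authors did not test, ALDH1A2, was at 0.338 FPKM in antibiotic and 0.610 FPKM in control. Of 4 tested choroid plexus markers 3 fell (75% called), with a summed FPKM of 126 in antibiotic and 344 in control. TTR, the transthyretin gene that defines that tissue, was at 70.6 and 289 FPKM in antibiotic and control (q = 0.000336). FOLR1 did not pass, at 53.7 FPKM in antibiotic and 46.2 FPKM in control (q = 0.324). Of 4 tested blood markers 2 fell (50% called), namely HBB and the white blood cell gene PTPRC. HBB, which encodes a haemoglobin chain, was at 386 FPKM in the antibiotic group and 5400 FPKM in control (q = 0.000336). ALAS2 did not pass, at 3.09 FPKM in antibiotic and 3.36 FPKM in control (q = 0.814). Nor did CD3E, with a log2 of 0.36 (q = 0.495). No matched marker of these 3 lists was at 0 in either group. Their part in the falls of the collagens was not tested.

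The other collagens, which decorate fibrils or form networks and filaments, were low and mostly did not pass. COL9A1, a chain that sits on the surface of fibrils, was at 1.22 FPKM in the antibiotic group and 0.239 FPKM in control (5.10-fold higher, q = 0.00352), and its log2 of 2.35 became 0.84 with 1 FPKM added to both groups. COL9A2, its partner in type IX collagen, was at 1.17 FPKM in antibiotic and 1.35 FPKM in control (q = 0.651). The most abundant gene of the class was COL6A2, a chain of the beaded filaments of type VI collagen, at 3.88 FPKM in antibiotic and 2.77 FPKM in control (q = 0.114). COL14A1, which binds to fibrils, was at 1.65 FPKM in antibiotic and 2.27 FPKM in control (q = 0.0776), and COL8A1, a network collagen of vessels, at 1.86 and 1.60 FPKM (q = 0.919). COL21A1, a further fibril-associated chain, was at 0.863 FPKM in antibiotic and 1.06 FPKM in control (q = 0.565). In the class 1 of 6 genes rose and none fell (16.7% called, against 41.1% of all tested features), and the median log2 was 0.0054.

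Of the basement membrane genes 40% were called, near the 41.1% of all tested features, and every call was a rise. LAMB2, the laminin beta 2 chain that is prominent in vessel walls, was at 13.7 FPKM in the antibiotic group and 6.96 FPKM in control (1.97-fold higher, q = 0.000336). LAMC3 and LAMB3 were low: LAMC3, a gamma chain, was at 1.87 FPKM in antibiotic and 1.06 FPKM in control (1.77-fold higher, q = 0.0124). LAMB3, a beta chain best known from skin, was at 2.00 FPKM in antibiotic and 0.988 FPKM in control (2.02-fold higher, q = 0.0332). The most abundant laminin, the gamma 1 chain LAMC1 that is shared by most brain laminins, did not pass, at 24.1 FPKM in antibiotic and 26.6 FPKM in control (q = 0.490). LAMB1, the beta 1 chain, was at 2.45 FPKM in antibiotic and 3.09 FPKM in control (q = 0.171). LAMB2 had 5.59 times the FPKM of LAMB1 in the antibiotic group and 2.26 times in control.

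Type IV collagen, the network of the basement membrane, is made in vessels from COL4A1 and COL4A2, which lie 156956 bases apart on chromosome 11 in the deposited coordinates. COL4A2 was at 6.20 FPKM in the antibiotic group and 2.56 FPKM in control (2.42-fold higher, q = 0.000336), while COL4A1 was at 9.17 and 10.4 FPKM in antibiotic and control (q = 0.553). COL4A1 had 1.48 times the FPKM of COL4A2 in antibiotic and 4.07 times in control. COL18A1, whose product yields the fragment endostatin, had the largest fold upwards of the 62 genes and did not pass, at 4.13 FPKM in antibiotic and 0.396 FPKM in control (10.4-fold, q = 0.0518), and its log2 of 3.39 became 1.88 with 1 FPKM added to both groups. The nidogens, which link laminin to type IV collagen, did not pass either: NID1 was at 8.38 FPKM in antibiotic and 5.97 FPKM in control (q = 0.134), and NID2 at 5.45 and 7.02 FPKM in antibiotic and control (q = 0.108). Of the 10 genes 4 rose and 6 did not pass the threshold, and their median log2 was 0.66. The summed FPKM was 77.4 in antibiotic and 65.0 in control.

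Endothelial markers were in part higher beside the basement membrane genes. Of 11 symbols 10 were matched and tested, and 5 rose and none fell (50% called, against 41.1% of all tested features). The summed FPKM was 294 in the antibiotic group and 200 in control, with no marker at 0. VWF, which encodes von Willebrand factor, was at 16.6 FPKM in antibiotic and 4.06 FPKM in control (q = 0.000336), and CLDN5, the tight junction claudin of the blood-brain barrier, at 106 and 54.9 FPKM in antibiotic and control (q = 0.000336). Others were not higher: EMCN, an endothelial sialoglycoprotein, was at 6.31 FPKM in antibiotic and 14.6 FPKM in control (2.31-fold lower, q = 0.0669), and the receptor TIE1 at 14.8 and 20.9 FPKM in antibiotic and control (q = 0.177). The receptors KDR and TEK had log2 values of 0.073 and 0.046 (q = 0.757 and 0.854). Of 9 tested markers of pericytes and smooth muscle, the other wall cells of vessels, 1 fell and none rose (11.1% called). The fall was that of ACTA2, smooth muscle actin, at 17.4 FPKM in antibiotic and 27.5 FPKM in control (q = 0.0025). The 9 markers summed to 106 FPKM in antibiotic and 119 FPKM in control. The part of these cells in the basement membrane values was not tested.

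**Figure D2:**
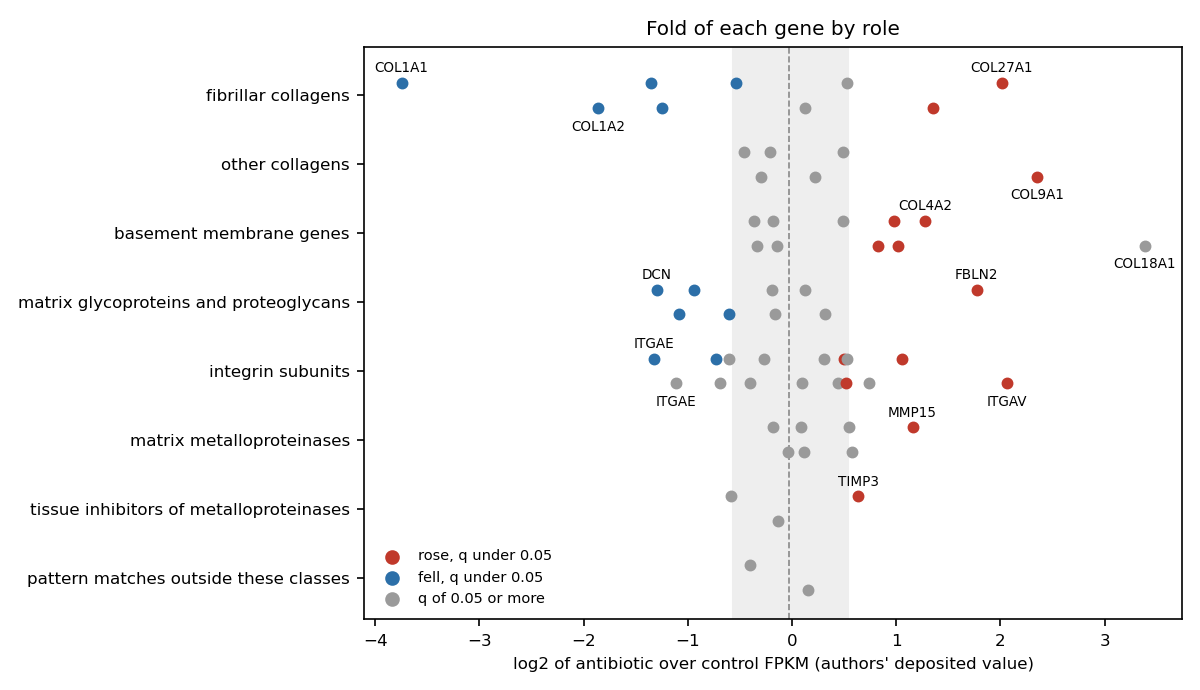
Log2 of antibiotic over control FPKM for each gene, by role. Points are genes (red rose, blue fell, grey did not pass the authors' q of 0.05), the grey band spans the 25th to 75th percentiles of all 13352 tested features (-0.57 to 0.54), and the dashed line is their median. COL1A1 at -3.75 and COL18A1 at 3.39 are the extremes, and the basement membrane row has red points and no blue one.

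The matrix glycoproteins and proteoglycans held the most abundant gene and a group of falls. SPARCL1, a matrix protein secreted by astrocytes, was at 925 FPKM in the antibiotic group and 1426 FPKM in control (deposited log2 of -0.61, q = 0.0274), but quantile normalization of the groups turned its log2 to 0.32, so its direction depended on the scaling. DCN and LUM, which encode the small leucine-rich proteoglycans decorin and lumican that bind collagen fibrils, both fell. DCN was at 11.9 FPKM in antibiotic and 29.2 FPKM in control (2.46-fold lower, q = 0.000336). LUM was at 2.41 FPKM in antibiotic and 5.12 FPKM in control (2.12-fold lower, q = 0.000336). BGN, their relative biglycan, did not pass, at 65.4 FPKM in antibiotic and 60.1 FPKM in control (q = 0.607).

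FBLN5, an organiser of elastic fibres, fell to 3.93 FPKM in the antibiotic group, against 7.56 FPKM in control (1.93-fold, q = 0.000336). FBLN2, a fibulin of vessels and basement membranes, was the class's single rise, at 16.4 FPKM in antibiotic and 4.79 FPKM in control (3.42-fold, q = 0.0209). The gene name table gives 2 further overlapping rows to FBLN2, at 15.6 and 9.34 FPKM in antibiotic and control (q = 0.00486) and at 27.9 and 19.9 FPKM (q = 0.633), so the 3 rows summed to 59.8 FPKM in antibiotic and 34.0 FPKM in control. FN1, fibronectin, was at 13.7 FPKM in the antibiotic group and 15.7 FPKM in control (q = 0.340). The fibrillins, which form microfibrils, did not pass: FBN1 was at 0.989 FPKM in antibiotic and 0.796 FPKM in control (q = 0.292), and FBN2 at 1.89 and 2.11 FPKM (q = 0.526). The class had 4 falls and 1 rise among 9 genes, and its median log2 was -0.20. That is 55.6% called and 44.4% falls, against 41.1% and 22.2% of all tested features, a difference that was not tested.

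Among the integrin subunits ITGAV stood apart. It encodes alpha V, which pairs with several beta subunits to bind fibronectin, vitronectin and latent TGF-beta. Its level was 126 FPKM in the antibiotic group and 30.3 FPKM in control (4.17-fold higher, log2 of 2.06, q = 0.000336), and its rise ranked 148th among tested features. Of its beta partners, ITGB5 was at 31.1 FPKM in antibiotic and 21.8 FPKM in control (1.43-fold higher, q = 0.0204). ITGB8, the partner that astrocytes use to activate TGF-beta around vessels, was at 15.0 FPKM in antibiotic and 24.9 FPKM in control (1.66-fold lower, q = 0.0291). ITGB1, the most widely shared beta subunit, was at 19.9 FPKM in antibiotic and 26.4 FPKM in control (q = 0.0565). ITGAV had 4.05 times the FPKM of ITGB5, 8.43 times that of ITGB8 and 6.34 times that of ITGB1 in the antibiotic group, against 1.39, 1.22 and 1.15 times in control, so alpha V was nearer to these 3 partners in control than in antibiotic. Its other partners ITGB3 and ITGB6, which were not tested, lay far below it in both groups, ITGB3 at 0.194 FPKM in antibiotic and 0.261 FPKM in control, and ITGB6 at 0.00746 FPKM in antibiotic and listed at 0 in control. The ITGAV row spans chromosome 15, 101580813 to 101720785, and overlaps no other row.

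ITGA3, a laminin-binding alpha subunit, rose to 10.4 FPKM in the antibiotic group, against 4.98 FPKM in control (2.08-fold, q = 0.00312). The other laminin receptors did not pass: ITGA6 was at 38.2 FPKM in antibiotic and 31.0 FPKM in control (q = 0.343), and its partner ITGB4 at 4.65 and 3.43 FPKM in antibiotic and control (q = 0.088). The collagen receptor ITGA1 was at 21.5 FPKM in antibiotic and 25.9 FPKM in control (q = 0.334), in a row that also carries the name PELO, and ITGA2 at 0.699 and 1.13 FPKM (q = 0.138). ITGA5, the fibronectin receptor, was at 2.92 FPKM in antibiotic and 2.02 FPKM in control (q = 0.282), and ITGA2B, the platelet subunit, at 0.883 and 0.530 FPKM (q = 0.160).

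Integrins of white blood cells were mixed. ITGAL, the alpha subunit of LFA-1, rose to 7.85 FPKM in the antibiotic group, against 5.55 FPKM in control (1.42-fold, q = 0.0285), while its partner ITGB2, which microglia also carry, was at 26.3 and 24.6 FPKM in antibiotic and control (q = 0.670). ITGAE, which marks T cells within epithelia, has 2 rows for 1 gene identifier, 3355 bases apart. The shorter, of 7632 bases, was at 14.4 FPKM in antibiotic and 36.3 FPKM in control (2.51-fold lower, q = 0.000336), and the longer, which overlaps CAMKK1, at 6.42 and 13.9 FPKM (2.17-fold lower, q = 0.244). ITGB7, a partner of ITGAE, was at 0.734 FPKM in antibiotic and 1.12 FPKM in control (q = 0.188). Beside these, 6 of 10 tested microglia and macrophage markers fell and 1 rose (70% called, against 41.1% of all tested features). Their summed FPKM was 394 in antibiotic and 654 in control. CX3CR1, a microglial chemokine receptor, was at 49.8 and 90.5 FPKM in antibiotic and control (q = 0.000336). The marker that rose was TREM2, a microglial receptor, at 15.7 FPKM in antibiotic and 4.58 FPKM in control (q = 0.000336). PTPRC, the CD45 of all white blood cells, fell to 6.95 FPKM in antibiotic, against 12.1 FPKM in control (q = 0.000336), and CD3E, which defines T cells, did not pass (q = 0.495). The part of these cells in the integrin values was not tested. In all 4 of 16 integrin rows rose and 2 fell (37.5% called, against 41.1% of all tested features), with a median log2 of 0.20. The alpha rows had a median of 0.40 and the beta rows one of -0.15.

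Among 7 proteases and 3 inhibitors 1 of each rose and none fell (14.3% and 33.3% called, against 41.1% of all tested features). MMP15, a membrane-anchored MMP, rose to 10.3 FPKM in the antibiotic group, against 4.61 FPKM in control (2.23-fold, q = 0.000336). MMP2, a gelatinase and the most abundant MMP here, was at 19.1 FPKM in antibiotic and 19.6 FPKM in control (q = 0.874), and MMP14, its membrane-bound activator, at 6.91 and 6.51 FPKM in antibiotic and control (q = 0.731). MMP11, MMP16, MMP17 and MMP19 did not pass, with q between 0.186 and 0.912. TIMP3, the inhibitor that stays bound to the matrix, rose to 150 FPKM in the antibiotic group, against 96.3 FPKM in control (1.56-fold, q = 0.0331). TIMP1, which overlaps the rows of SYN1 and ARAF, was at 17.1 FPKM in antibiotic and 25.6 FPKM in control (q = 0.485), and TIMP4 at 2.51 and 2.75 FPKM (q = 0.867). The 3 TIMP genes summed to 169 FPKM in antibiotic and 125 FPKM in control, and the 7 MMP genes to 46.9 and 39.7 FPKM in antibiotic and control. COL4A3BP was at 10.5 FPKM in antibiotic and 13.9 FPKM in control (q = 0.165), and ITGB1BP1 at 28.3 and 25.4 FPKM (q = 0.903).

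Some matrix genes carry only an identifier in the deposited table and were reached through the gene name table, or stand second in a row's name. Of 14 such tested rows 4 rose and none fell (28.6% called, against 41.1% of all tested features). HSPG2, which encodes the basement membrane proteoglycan perlecan, was at 9.54 FPKM in the antibiotic group and 5.01 FPKM in control (1.90-fold higher, q = 0.000336). LAMA3, a laminin alpha chain, was at 1.90 FPKM in antibiotic and 1.27 FPKM in control (q = 0.0346), and COL16A1, a fibril-associated collagen, at 1.69 and 0.626 FPKM (q = 0.00207), and the fourth rise was the FBLN2 row given above. LAMA2 and LAMA4, laminin alpha chains of brain vessels, did not pass, at 4.14 and 2.48 FPKM in antibiotic, against 4.95 and 2.49 FPKM in control (q = 0.520 and 0.978). With these rows 6 of 16 basement membrane genes rose (37.5%), none fell, and the median log2 was 0.54. SPARC, a collagen-binding protein of vessels and glia, was the most abundant of them at 3666 FPKM in antibiotic and 4147 FPKM in control (q = 0.407), and ITGAM, the partner of ITGB2 in microglia, was at 19.1 and 16.6 FPKM in antibiotic and control (q = 0.374).

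Neighbouring genes of the set gave both like and unlike values. DCN and LUM lie 31984 bases apart on chromosome 5 and fell by similar folds, and DCN had 4.93 times the FPKM of LUM in antibiotic and 5.71 times in control. COL3A1 and COL5A2 lie 15165 bases apart on chromosome 15 and both fell. ITGA3 and COL1A1 lie 160687 bases apart on chromosome 12 and moved in opposite directions, as the values above show. The 62 rows lie on 17 chromosomes. No source used here ties the deposited coordinates to a build, although susScr3 is among those in the submitters' processing notes.

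Long loci had lower folds in the table as a whole, and the matrix genes are long. Their median locus was 52848 bases, against 30049 bases for all tested features. Among tested features over 50000 bases 12.8% rose and 23.4% fell, with a median log2 of -0.15. Of the 34 genes of the naming pattern of that length, COL4A3BP and ITGB1BP1 among them, 8 rose and 5 fell (23.5% and 14.7%), with a median of -0.18. At 50000 bases or fewer 22.3% of all tested features rose and 21.5% fell (median 0.04), and of the 28 genes 6 rose and 6 fell (median 0.17). All 3 calls among the 6 genes under 10000 bases were falls, namely COL1A1, LUM and the shorter ITGAE row. Of all tested features under 10000 bases 21.9% rose and 19.2% fell, with a median log2 of 0.11. Calls also grew with level, since 26.7% of the 15 genes with a mean under 2 FPKM and 50.0% of the 24 with 10 FPKM or more changed, against 21.9% and 50.2% of all tested features of those levels.

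**Figure D3:**
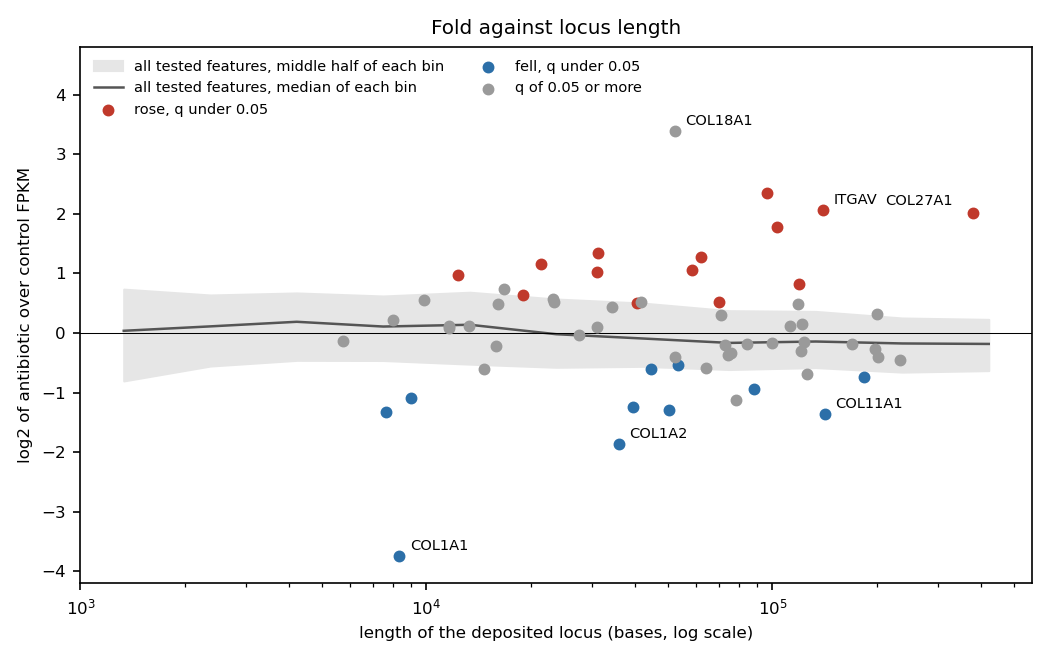
Log2 of antibiotic over control FPKM against the length of the deposited locus (log axis) for the 62 genes, coloured by call, over the median and the 25th to 75th percentiles of all tested features in bins of length. The median of all features lies above 0 at short loci and below 0 at long ones, COL1A1 (-3.75) is far below the band at 8347 bases, and COL27A1 (2.01) and ITGAV (2.06) are above it at 378854 and 139972 bases.

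Genes that make and mature collagen split. There were 3 rises and 4 falls among the 17 that were tested, and the median log2 was 0.20. That is 41.2% called, near the 41.1% of all tested features. LOXL1, a lysyl oxidase that cross-links elastin and collagen, was at 2.10 FPKM in the antibiotic group and 6.95 FPKM in control (3.32-fold lower, q = 0.000336). PLOD2, which hydroxylates lysines for cross-links, was at 8.05 FPKM in antibiotic and 18.2 FPKM in control (2.26-fold lower, q = 0.000336), and P4HA1, a prolyl hydroxylase subunit, at 15.6 and 27.4 FPKM in antibiotic and control (q = 0.000336). PCOLCE, which speeds the trimming of procollagen, was the fourth fall, at 6.60 FPKM in antibiotic and 13.2 FPKM in control (q = 0.00185). The rises were those of SERPINH1, the collagen chaperone HSP47, at 68.0 and 32.1 FPKM in antibiotic and control (q = 0.00352), of PLOD1 (q = 0.00207) and of BMP1, a procollagen protease (q = 0.00524).

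The hyaluronan-based matrix that is typical of brain tissue had 4 rises and 3 falls among 15 tested members, with a median log2 of 0.33. That is 46.7% called, against 41.1% of all tested features. HAPLN2, a link protein at nodes of myelinated axons, was at 106 FPKM in the antibiotic group and 46.9 FPKM in control (2.25-fold higher, q = 0.000336). The falls were those of PTPRZ1, a receptor-type proteoglycan, at 70.0 FPKM in antibiotic and 115 FPKM in control (q = 0.00114), of CSPG5 at 288 and 465 FPKM (q = 0.00185), and of the link protein HAPLN1 (q = 0.00928). The other rises were CSPG4, HYAL2 and a row that HYAL1 shares with HYAL3 and NAT6, and BCAN, the brevican core protein, was at 118 FPKM in antibiotic and 83.3 FPKM in control (q = 0.0701).

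Among the cell surface receptors and heparan sulphate proteoglycans 4 of 12 rose and 1 fell, with a median log2 of 0.56. That is 41.7% called, near the 41.1% of all tested features. The glypican GPC1 was at 44.1 FPKM in the antibiotic group and 18.2 FPKM in control (2.42-fold higher, q = 0.000336), and the syndecan SDC3 at 77.8 and 34.9 FPKM in antibiotic and control (2.23-fold higher, q = 0.000336). AGRN, the basement membrane proteoglycan agrin, was at 9.99 FPKM in antibiotic and 5.56 FPKM in control (1.80-fold higher, q = 0.000336), and SDC4 was the other rise. SDC2 fell, to 12.4 FPKM in antibiotic against 23.9 FPKM in control (q = 0.000336).

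The machinery that links integrins to the cytoskeleton had 5 rises and no fall among 16 tested members, with a median log2 of 0.46. The share called was 31.2%, below the 41.1% of all tested features. BCAR1, an adaptor at focal adhesions, was at 14.8 FPKM in the antibiotic group and 6.65 FPKM in control (2.23-fold higher, q = 0.000336), and the kinase SRC at 18.4 and 8.43 FPKM in antibiotic and control (2.18-fold higher, q = 0.000336). ILK, the integrin-linked kinase, was at 65.1 FPKM in antibiotic and 39.0 FPKM in control (q = 0.000891), and TLN1, the talin that activates integrins, at 41.7 and 26.7 FPKM (q = 0.00162). ZYX was the remaining rise. The list also holds ITGB1BP1. Of 9 further matrix proteases and inhibitors, PLAT, the tissue plasminogen activator, rose to 30.0 FPKM in antibiotic against 20.7 FPKM in control (q = 0.00928). ADAM10, a sheddase, fell to 14.4 FPKM in antibiotic against 24.8 FPKM in control (q = 0.000336). The other 7 did not pass (22.2% called in this list), and the median log2 was 0.11.

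**Figure D4:**
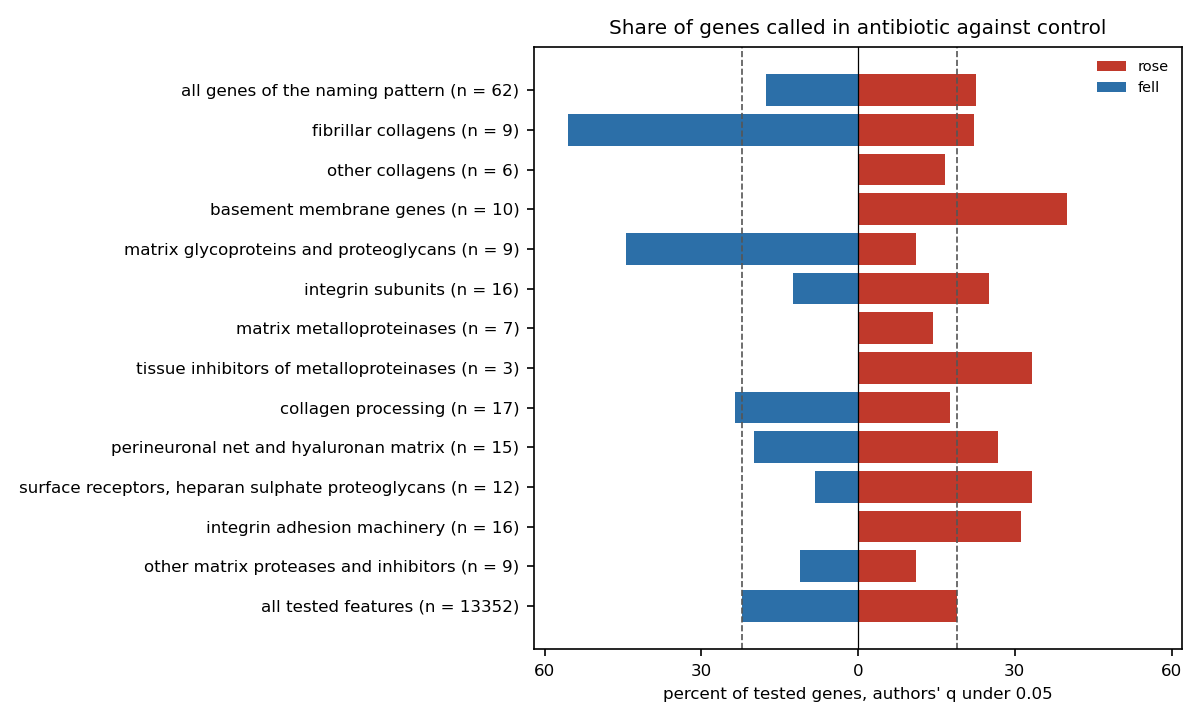
Percent of tested genes that rose (right, red) and fell (left, blue) at an authors' q under 0.05, for each role, for 5 further lists of matrix and adhesion genes and for all tested features, whose shares (19.0% and 22.2%) are drawn as dashed lines. Fibrillar collagens extend to 55.6% on the side of falls, and basement membrane genes, with 4 of 10, reach farthest on the side of rises.

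Markers of brain cells and of the tissue were present. The hypothalamic peptide genes AVP and OXT were at 181 and 96.8 FPKM in the antibiotic group, against 211 and 310 FPKM in control. Of 8 tested hypothalamic markers 2 fell, OXT and PMCH (q = 0.000336 each), and none rose. That is 25% called, against 41.1% of all tested features. PMCH, which encodes melanin-concentrating hormone, was at 18.6 FPKM in antibiotic and 281.6 FPKM in control. SIM1 and GHRH were under 1 FPKM in both groups. Astrocyte markers summed to 5676 FPKM in antibiotic and 3124 FPKM in control (2 of 5 rose, 1 fell, 60% called). GFAP held most of that sum, at 4819 and 2185 FPKM in antibiotic and control (q = 0.00647). AQP4 was the fall, at 270 and 470 FPKM in antibiotic and control (q = 0.000336). Oligodendrocyte markers summed to 10990 and 8843 FPKM (1 of 4 rose, 25% called). Neuron markers summed to 803 and 688 FPKM (2 of 5 rose, 40% called), but their median log2 was -0.059, with 3 of 5 below 0. The neuron marker SYP was at 238 FPKM in antibiotic and 91.9 FPKM in control (q = 0.000336). Pituitary markers summed to 1.67 and 1.91 FPKM (none of 1 tested passed). The deposited table as a whole summed to 563424 FPKM in antibiotic and 1.23e+06 FPKM in control.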

How the data were processed

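RNA-seq was made from 3 antibiotic and 4 control hypothalami, grouped by sample title. Per the labels' protocols, RNA was extracted with Trizol and libraries were built with an Illumina TruSeq kit. The submitters' processing notes list Bowtie 0.12.2, susScr3 and mm8 without roles. The authors deposited 3 sheets, of which the first was used. Per the file headers the authors computed 1 FPKM value per gene and group, which normalizes for transcript length and library size. The log2 fold, each p-value and each q-value were computed by the authors, per the file headers. In 16 tested features the deposited log2 was over 0.01 from the log2 ratio of those values with no pseudocount. A test statistic, a score that the authors computed per the file headers, was not used. No source used here says how libraries were combined, whether counting used strand, or which annotation was taken. The smallest deposited p-value, 5e-05, was shared by 2081 tested features and 13 of the genes described.

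The 6 blank rows were left out. Members were found by a pattern on the gene name with status OK, and assigned to 7 roles by hand. A total of 16 lists with 182 symbols were matched by name or through the Ensembl ID in the gene name table (147 matched), and where a symbol had several rows, the most abundant tested row stood for it. The members and lists were chosen with earlier results of these data known. No test over libraries could be fitted, and the authors' q at 0.05 was used, with pandas 2.3.3 and numpy 2.4.6. The scalings were tested on simulated data. Named were every member past the threshold, the 3 most abundant of each role, those just above the threshold, and up to 4 of each further list by the smallest q; the other members, and markers or list members that add a value to a comparison, were named with their values in view. In 1 member, SPARCL1, the deposited log2 and that of its deposited FPKM values were over 0.01 apart.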

Additional observations from a re-analysis of the deposited data

How the results depend on the processing

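A q of 0.01 left 7 rises, and the authors' own significant call, which also asks for a 2-fold change, left 9 rises and 7 falls. Counts of genes with at least a 2-fold higher value fell to 6 with 1 FPKM added to both groups and to 6 among genes with 5 FPKM in a group. For all 62 genes together the median log2 became -0.14 among genes with 5 FPKM in a group and, in an alternative chosen after seeing the data, -0.18 among loci over 50000 bases. That of the other collagens became -0.081 after quantile normalization and that of the TIMPs 0.027 with 5 FPKM in a group, and the log2 of SPARCL1 became 0.32 after quantile normalization; the cause was not tested. The other 24 called genes kept their sign under upper quartile scaling, median centring, quantile normalization and pseudocounts of 0.1 and 1, but sizes moved: with 1 FPKM added, 13 called genes moved by over 0.1 on the log2 scale, COL9A1 to 0.84 and COL27A1 to 0.95. The fibrillar median ranged from -0.89 to -0.21, where -0.21 is the value without COL1A1, an alternative chosen after seeing the data. The basement membrane median ranged from 0.17 to 0.74, where 0.17 is the value among genes with at least 5 FPKM in a group. Adding rows matched by identifier, chosen after seeing the data, gave 18 rises and 11 falls, and adjusting the deposited p anew, also chosen after seeing the data, gave 15 and 11. No paired analysis was possible because the deposited columns hold 1 value per group, and leaving out single libraries was not run for the same reason. Depth is unknown.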

Other observations

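The 28 rows that fit the naming pattern but were not tested by the authors were all under 1 FPKM in both groups, with 0.783 FPKM, that of COL6A3 in control, as the highest value. They comprise 10 further collagens, 8 MMPs, 6 integrin subunits, 2 basement membrane collagens, FBN3 and ITGBL1. In control 5 of them were listed at 0, and none was in the antibiotic group. MMP9, the gelatinase of white blood cells, was at 0.0499 FPKM in antibiotic and 0.0339 FPKM in control, and ITGA4, a subunit of lymphocyte integrins, at 0.301 and 0.381 FPKM.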
